A study of Mus musculus with 60 samples.

Results

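A total of 4249 H3K27me3 peaks were present in the exercised SIT peak list and absent from every other H3K27me3 list of the study. They were chosen by their measured positions: a peak had to lie within 100 kb of an annotated transcription start site and share no base with a peak of the other 5 H3K27me3 lists. The exercised SIT list held 25693 peaks, of which 19151 lay within 100 kb of a start site, so the chosen peaks were 22.2% of the latter (95% Wilson interval 21.6 to 22.8%). Presence in 1 list alone was what chose them, so their number, widths and distances from other peaks are described below without a test. Such peaks are called list-only peaks, and the 14902 remaining exercised SIT peaks within 100 kb are called shared peaks.

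The lists came from CUT&RUN-seq, in which an antibody directs a nuclease to cut and release the DNA around a histone modification, on hippocampal nuclei of male Emx1-NuTRAP mice (Emx1-IRES-Cre crossed to the NuTRAP reporter). Exercised mice, the early-life exercise (ELE) group, had free access to a running wheel from postnatal day 21 to 41, and sedentary mice of the same genotype lived in standard cages over those days. Nuclei were taken from the whole bilateral hippocampus by simultaneous isolation of nuclei and translating RNA (SIT), or by separate isolation from the left or the right hippocampus. The labels name 4 samples per mark and condition for SIT and 3 for each separate side, and 1 peak list was analysed for each mark, condition and isolation, 12 in all with 256375 peaks. Cre expression in this line follows Emx1, which is active in most excitatory neurons of the hippocampus and in neural progenitors, so the nuclei are a mixture of these cells. The lists hold positions only, with no samples, signal or read counts, and the labels tie each list to the samples of its group. Exercised H4K8ac libraries from both SIT and separate isolation were left out by the authors for a high false discovery rate. A legend of the study on SIT peaks gives fewer mice per condition than the labels name samples, and how those mice relate to the lists is not clear from it. Each list is therefore 1 unit without replicates, and the Wilson intervals cover counting error over peaks or genes, not differences between mice.

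H3K27me3 is placed by Polycomb repressive complex 2 and marks genes held silent, among them developmental regulators of other lineages. It spreads into broad domains from CpG-rich DNA, which often lies at promoters. H4K8ac is an acetylation found at active promoters and enhancers, so the 2 marks mostly occupy different DNA. In the exercised SIT list, 11 of 14 GABAergic interneuron genes had an H3K27me3 peak assigned, among them Gad1, Gad2, Sst and Pvalb, against 3 of 12 excitatory neuron genes. H4K8ac peaks in the exercised SIT list were assigned to 9 of the 12 excitatory neuron genes, among them Slc17a7, Neurod6 and Camk2a, and to 5 of the 14 interneuron genes.

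The sequences below show the DNA under list-only peaks beside that of peaks found in all 6 lists. Each is 300 bases about the centre of a peak, read from the plus strand of the RefSeq copy of GRCm38.p6, with every CpG in capitals. Peaks without a gene symbol, windows that touch an annotated UTR and 1 chromosome, named in the methods, from which no sequence is shown were left out. Of the peaks then remaining, these are the widest at promoters, the widest elsewhere and the widest in all 6 lists. The widest list-only promoter peak of all, at Gm6277, is among those left out. The list-only promoter peaks were at Ankfn1 (chr11:89694589-89706732, over the start of its assigned transcript, inside the gene) and Samd9l (chr6:3390522-3398245, 1327 bp downstream of the start). The list-only peaks elsewhere were in the intron of Tshz3 (chr7:36712343-36721411) and in an exon assigned to Phyhipl (chr10:70734751-70741697, 78786 bp upstream of its start). The peaks in all 6 lists were at the Plcb4 start (chr2:135601520-135835014) and the Gm21188 start (chr13:119934544-120111711).
Ankfn1, list-only, chr11:89700511-89700810: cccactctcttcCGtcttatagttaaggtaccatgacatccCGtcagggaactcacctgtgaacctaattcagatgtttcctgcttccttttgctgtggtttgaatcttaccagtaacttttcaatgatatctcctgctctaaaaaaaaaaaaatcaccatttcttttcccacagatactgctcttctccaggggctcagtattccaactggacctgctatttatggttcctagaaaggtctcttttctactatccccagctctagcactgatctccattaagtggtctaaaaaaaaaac
Samd9l, list-only, chr6:3394234-3394533: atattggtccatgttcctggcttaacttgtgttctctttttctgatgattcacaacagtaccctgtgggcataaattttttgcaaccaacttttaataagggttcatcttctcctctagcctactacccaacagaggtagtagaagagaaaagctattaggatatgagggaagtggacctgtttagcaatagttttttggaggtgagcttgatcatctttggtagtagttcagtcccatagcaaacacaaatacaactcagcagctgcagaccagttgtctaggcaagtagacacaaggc
Tshz3, list-only, chr7:36716728-36717027: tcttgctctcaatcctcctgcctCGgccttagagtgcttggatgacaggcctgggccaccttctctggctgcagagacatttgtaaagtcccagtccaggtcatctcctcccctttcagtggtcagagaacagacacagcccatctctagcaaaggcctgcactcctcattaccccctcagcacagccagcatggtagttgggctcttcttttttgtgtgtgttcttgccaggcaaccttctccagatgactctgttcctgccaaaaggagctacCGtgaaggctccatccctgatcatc
Phyhipl, list-only, chr10:70738075-70738374: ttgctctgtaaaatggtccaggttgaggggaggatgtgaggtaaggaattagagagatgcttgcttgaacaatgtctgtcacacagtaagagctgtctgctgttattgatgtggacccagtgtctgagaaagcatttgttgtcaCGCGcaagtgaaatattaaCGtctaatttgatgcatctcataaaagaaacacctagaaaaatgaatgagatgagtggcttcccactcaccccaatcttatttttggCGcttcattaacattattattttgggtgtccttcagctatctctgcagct
Plcb4, in all 6 lists, chr2:135718118-135718417: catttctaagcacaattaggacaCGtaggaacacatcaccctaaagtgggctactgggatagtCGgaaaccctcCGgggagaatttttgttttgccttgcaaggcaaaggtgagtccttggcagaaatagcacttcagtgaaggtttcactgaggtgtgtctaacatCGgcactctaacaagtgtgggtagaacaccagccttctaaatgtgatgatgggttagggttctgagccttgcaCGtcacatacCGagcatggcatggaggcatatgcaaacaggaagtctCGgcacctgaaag
Gm21188, in all 6 lists, chr13:120022978-120023277: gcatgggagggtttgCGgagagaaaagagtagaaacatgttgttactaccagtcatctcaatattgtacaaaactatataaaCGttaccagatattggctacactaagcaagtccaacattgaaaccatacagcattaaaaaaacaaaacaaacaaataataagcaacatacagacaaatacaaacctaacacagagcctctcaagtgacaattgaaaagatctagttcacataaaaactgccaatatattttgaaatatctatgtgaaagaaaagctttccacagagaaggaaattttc
The Ankfn1, Samd9l, Tshz3 and Phyhipl windows held 2, 0, 2 and 4 CpG, and the Plcb4 and Gm21188 windows held 7 and 2. Over the whole peaks, CpG density was 0.823 per 100 bp at Ankfn1, 0.544 at Samd9l, 1.69 at Tshz3 and 0.821 at Phyhipl, against 1.01 at Plcb4 and 1.17 at Gm21188.

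The first question was how the number of list-only peaks in the exercised SIT list stood beside the other lists. The sedentary SIT list had 24 list-only peaks among 7935 within 100 kb (0.302%). In the left separate isolation, the exercised list had 876 of 13769 (6.36%) and the sedentary list 251 of 11003 (2.28%). In the right separate isolation, the order of the conditions was the opposite, with 120 of 7747 (1.55%) in the exercised list and 1840 of 16486 (11.2%) in the sedentary list. List length moved with these numbers: the lists with 25693, 21790, 18262 and 14491 peaks in all had 4249, 1840, 876 and 251 list-only peaks, and the 2 shortest, with 10279 and 9899 peaks, had 24 and 120. When each list was reduced to its widest 9899 peaks, the exercised SIT list had 739 list-only peaks of 7549 within 100 kb (9.79%), and the other 5 lists had between 426 and 571 (5.57 to 7.54%). This step made the number of peaks equal but not the bases covered, which in the full lists ran from 41.2 to 135.6 Mb, and it too is a description. Its count in the full lists was 6318 without the sedentary right separate list, and against the 3 sedentary lists alone it was 5252.

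**Figure D1:**
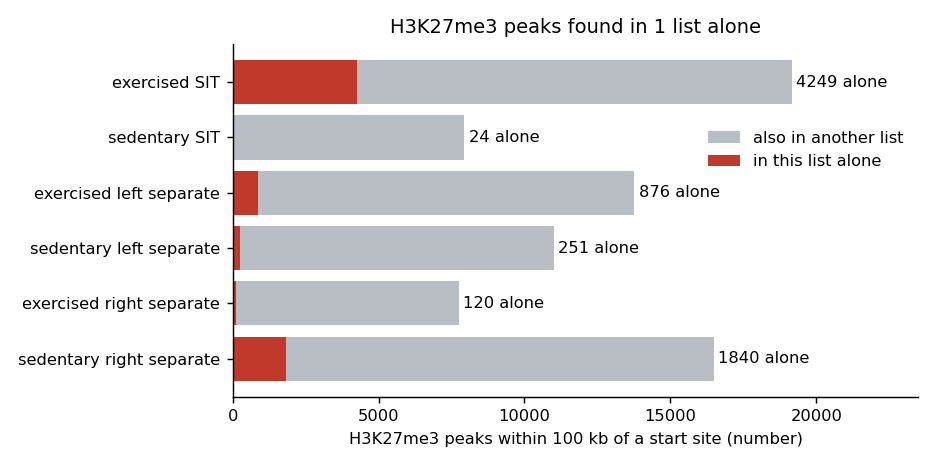
Number of H3K27me3 peaks within 100 kb of a start site in each of the 6 lists (horizontal axis, peaks), with the peaks found in that list alone in red and the rest in grey. The exercised SIT list had 4249 peaks of its own, the sedentary right separate list 1840, and the sedentary SIT list 24.

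List-only peaks were narrow. Their median width was 2110 bp (5th to 95th percentile 1355 to 3923 bp), against 3808 bp for shared peaks and 8856 bp for the 4062 exercised SIT peaks found in all 6 lists. Only 65 of them (1.53%) reached 5 kb, against 5455 shared peaks (36.6%). Together they covered 9.79 Mb, and the shared peaks 94.2 Mb. Width was larger with each further list in which a peak was found: the median was 2333 bp for peaks found in 1 other list, 2813 bp in 2, 3462 bp in 3 and 4862 bp in 4.

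Most list-only peaks lay near peaks of the other lists without touching them. The median gap to the nearest peak of another list was 5884 bp (quartiles 1888 and 21011 bp), 2641 peaks (62.2%) had one within 10 kb, and 338 (7.95%) had none within 100 kb. The nearest peak belonged to the sedentary right separate list for 2038 of them (48.0%), to the exercised left separate list for 1173 (27.6%) and to the sedentary SIT list for 370 (8.71%). At the edge of the overlap rule, the peaks just inside were beside Prox1 and Afap1l2, each with 0 bases between it and a peak of another list, and at Rybp with 1 base between. Just outside it were peaks at Tril, Trim36 and Rims3, which shared 1, 2 and 3 bases with another list. A total of 78 list-only peaks lay less than 100 bp from a peak of another list, and 67 peaks were outside the set through an overlap of less than 100 bp with 1 other list. The distance rule kept peaks 99879 bp from the start of Tyw3 and 99855 bp from Mir1892, and left out peaks 100025 bp from 4933402J15Rik and 100033 bp from Pappa. Beyond 100 kb there were 1738 more peaks in the exercised SIT list alone, with a median width of 2136 bp.

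**Figure D2:**
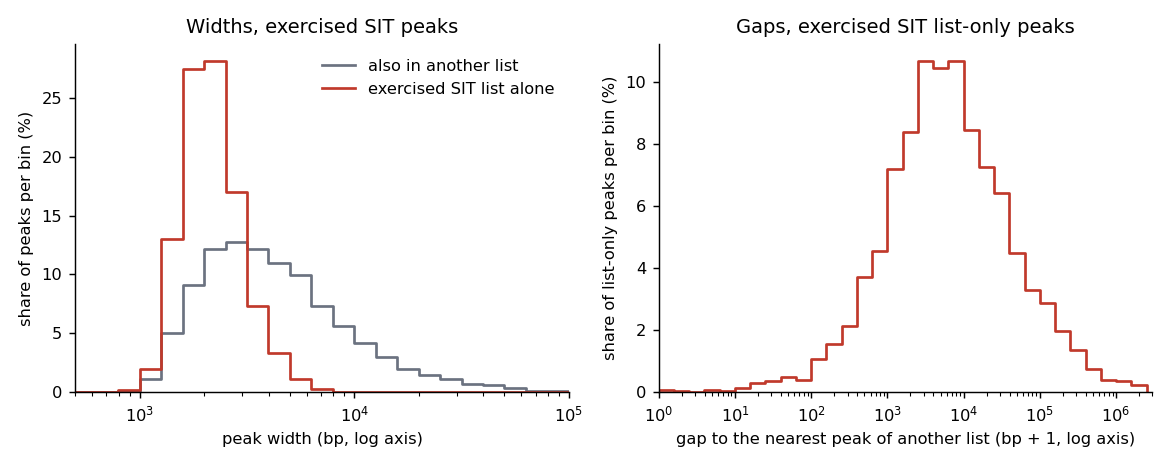
Left, peak widths (bp, log axis) as the share of peaks per bin for list-only peaks (red) and shared peaks (grey) of the exercised SIT list. Right, the gap from each list-only peak to the nearest peak of another list (bp plus 1, log axis). List-only widths centre near their median of 2110 bp and gaps near 5884 bp.

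Base composition and H4K8ac were not used to choose the peaks, and these were compared between list-only and other peaks in all 6 lists. Promoter annotation was compared too. It is read from the same distance to a start site that the 100 kb limit used, although that limit held for list-only and other peaks alike. Of the list-only peaks, 598 (14.1%, 13.1 to 15.1%) were annotated to promoters, taken as 3 kb to either side of a start site, against 3994 shared peaks (26.8%, 26.1 to 27.5%). Introns held 1238 (29.1%) of the list-only peaks against 19.6% of shared peaks, distal intergenic DNA 1797 (42.3%) against 37.1%, and exons 436 (10.3%) against 12.6%. A start site of a GENCODE gene lay inside 264 list-only peaks (6.21%) and inside 2942 shared peaks (19.7%). The share at promoters was lower in list-only than in other peaks of the same list in 6 of 6 lists, by a mean of -12.66 ± 4.16 percentage points (SD over 6 lists; range -20.5 to -9.48). With no distance limit the mean difference was -10.12 points, lower in 6 of 6 lists. Since the class depends on distance and on how far a peak reaches, and list-only peaks were narrow, these shares are a description without a test.

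That difference moved with width. Among peaks of 1000 to 3000 bp, promoters held 13.8% of the list-only and 17.4% of the shared exercised SIT peaks. Over the 6 lists, the mean difference at this width was -0.693 points. The sedentary SIT list had 3 list-only peaks of this width, and 5 of 6 lists still had the lower share in list-only peaks.

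CpG density was lower under list-only peaks. It was 1.0 CpG per 100 bp (SD 0.623 over 4249 peaks) against 1.18 (SD 0.726 over 14902) under shared peaks, and the spread within each set was larger than the difference. GC content was 44.1% (SD 4.79) against 45.0% (SD 4.76). Over the 6 lists the mean difference in CpG density was -0.27 ± 0.11 per 100 bp (SD, range -0.39 to -0.12), lower in 6 of 6 lists. That in GC content was -1.64 ± 0.93 percentage points (SD, range -2.80 to -0.573), also lower in 6 of 6 lists. A two-sided exact permutation test that flips the signs of the 6 differences gave p = 0.03125 for each, the smallest that 6 lists allow, and 0.0417 after Benjamini-Hochberg adjustment over 4 tests. The 6 sets were defined against each other, so the 6 differences are not independent. Among peaks of 1000 to 3000 bp both remained lower in 6 of 6 lists. The mean differences were -0.28 CpG per 100 bp and -1.97 points of GC. The exact permutation p was 0.03125 for each, and 0.0625 after adjustment over the 4 tests. The sedentary SIT list, with 3 list-only peaks of this width, had the largest differences and counted as much as any other list. Its values were 0.507 against 1.29 CpG per 100 bp and 39.35 against 45.62% GC. At that width the exercised SIT values themselves were 1.004 against 1.10 CpG per 100 bp and 44.1 against 44.7% GC.

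**Figure D3:**
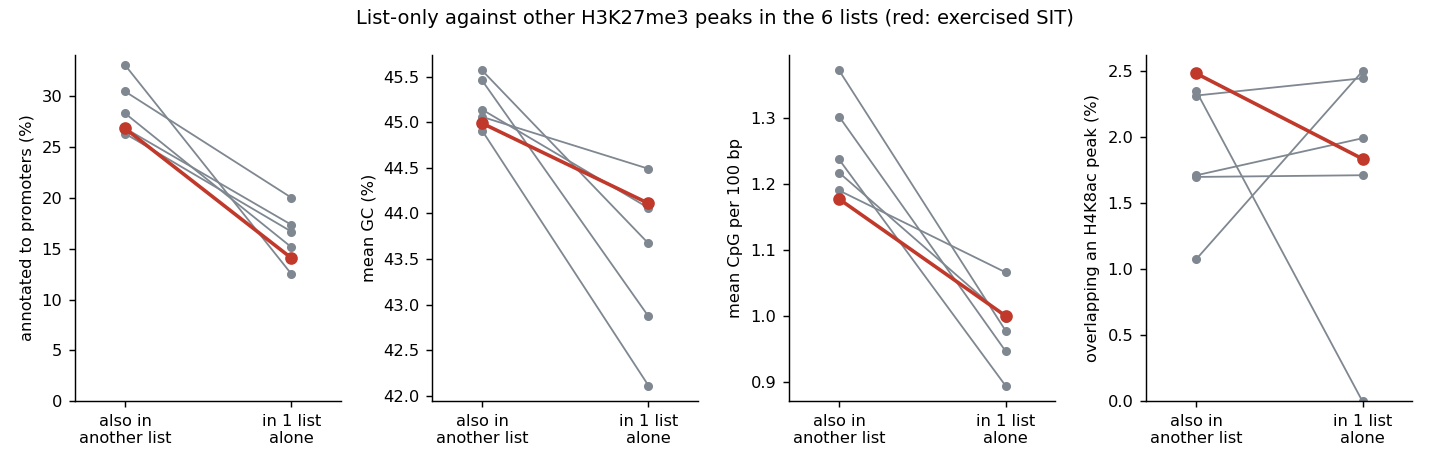
Shared peaks (left point) and list-only peaks (right point) of each of the 6 H3K27me3 lists, for the share annotated to promoters (%), mean GC (%), mean CpG per 100 bp and the share overlapping an H4K8ac peak (%). Lines join the values of 1 list and red is exercised SIT; the GC and CpG axes do not start at 0. Promoter share, GC and CpG density fall from left to right in 6 of 6 lists, and H4K8ac overlap falls in 2 of 6.

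By class, CpG density at promoters was 1.33 per 100 bp under list-only and 1.63 under shared peaks. In introns it was 0.951 and 0.997, and in distal intergenic DNA 0.902 and 0.979. Within the exercised SIT list, the mean density went from 1.0 for list-only peaks to 1.04, 1.12, 1.15, 1.18 and 1.35 for peaks found in 1, 2, 3, 4 and 5 other lists. The promoter share over the same steps went from 14.1% to 15.4, 18.97, 21.5, 25.6 and 45.6%. List-only peaks thus stood at the low end of a graded series, close to the peaks found in 1 other list.

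**Figure D4:**
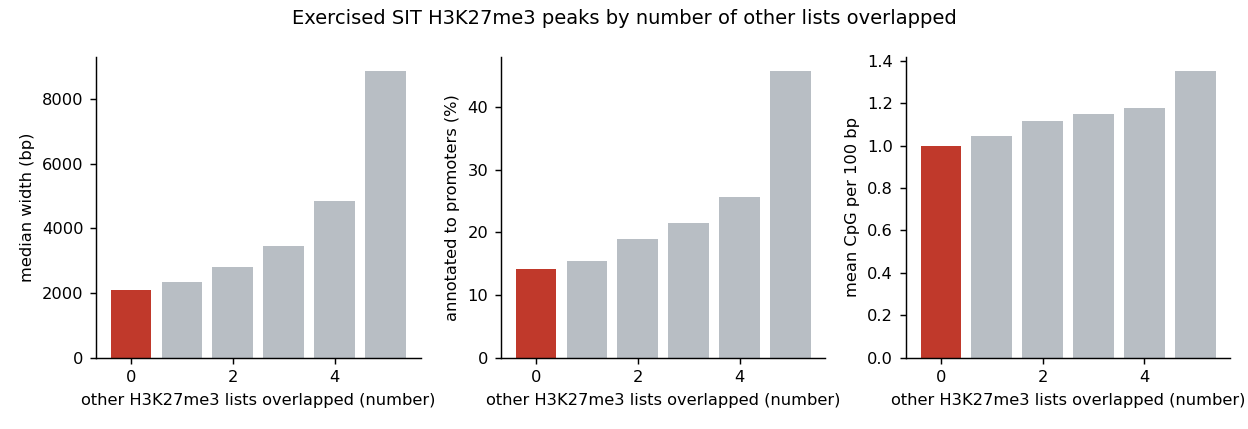
Exercised SIT H3K27me3 peaks within 100 kb, by the number of other lists they overlap (horizontal axis, 0 in red being the list-only peaks), with median width (bp), share annotated to promoters (%) and mean CpG per 100 bp. All 3 measures rise from 0 to 5 other lists, width from 2110 to 8856 bp and promoter share from 14.1 to 45.6%.

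Overlap with H4K8ac was rare. An H4K8ac peak of any list overlapped 78 list-only peaks (1.84%, 1.47 to 2.28%) and 370 shared peaks (2.48%, 2.25 to 2.74%). Among exercised SIT peaks of 1000 to 3000 bp the shares were 1.58 and 1.62%. Over the 6 lists, at all widths, the mean difference was -0.19 ± 1.25 percentage points (SD), lower in 2 of 6 lists. It lay within the spread between lists (exact sign-flip permutation p = 0.75, adjusted 0.75). Without the sedentary SIT list, in which 0 of 24 list-only peaks overlapped H4K8ac, the mean was 0.241 points. When peaks counted as shared only from a reciprocal overlap of 50%, the difference was -0.52 points, lower in 6 of 6 lists, with an adjusted exact permutation p of 0.03125. Of the 78, 47 (60.3%) overlapped sedentary H4K8ac lists alone, 15 (19.2%) exercised lists alone, and 10 overlapped 3 or more of the 6 H4K8ac lists. Of the 370 shared peaks, 166 (44.9%) overlapped sedentary lists alone, 106 (28.6%) exercised lists alone, and 72 overlapped 3 or more. This difference between the sets was not tested. The H4K8ac lists also differed in length. In SIT, left and right, the sedentary ones held 30358, 36425 and 25159 peaks and the exercised ones 38136, 12168 and 13715. Singled out after its values were seen, the peak overlapping the most H4K8ac lists, 5 of 6, lay at the promoter of Pde7b, a cAMP phosphodiesterase (chr10:20720426-20724065). An intronic peak of Lrrtm3, which encodes a synaptic adhesion protein, overlapped 4 (chr10:64082369-64087039, 4671 bp). Under the rule for named genes, peaks of Tshz3, Nr4a2, Foxo1, Foxp2, Cdh4, Sox5, Rcan2, Cables1, Adamts12 and Aebp2 overlapped H4K8ac.

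Genes were assigned to all but 49 list-only peaks. They numbered 2611, which was 42.1% of the 6195 genes with any exercised SIT peak within 100 kb, and 1749 of them (66.99%) had a single list-only peak. For most, H3K27me3 was listed elsewhere at the gene as well: 1096 (42.0%) had a peak assigned in all 5 other lists, and 1402 (53.7%) in the sedentary SIT list. A smaller group of 557 genes (21.3%, 19.8 to 22.9%) had no H3K27me3 peak in any other list, 177 of them (31.8%) with a list-only promoter peak, against 535 of all 2611 (20.5%), a difference that was not tested. H4K8ac was listed at 312 of these 557 genes (56.0%) in at least 1 list, and at 1252 of the other 2054 (61.0%).

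At the level of genes, the H4K8ac lists of each isolation were compared between conditions. In SIT, 1403 genes with a list-only peak had an H4K8ac peak, and 324 (23.1%) had it in the exercised list alone, where 27.5% of all H4K8ac genes did. The sedentary list alone held 147 (10.5%), against 10.1% of all H4K8ac genes. In the left separate isolation, 35 of 1170 (2.99%) were in the exercised list alone and 649 (55.5%) in the sedentary list alone, where the background shares were 3.58 and 51.9%. In the right separate isolation, 88 of 1073 (8.20%) and 429 (39.98%) stood beside backgrounds of 9.14 and 36.7%. Each share lay within 5 percentage points of its background.

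Among the 557 genes without H3K27me3 in any other list, Mef2c had the most list-only peaks, and it was singled out after its values were seen. Mef2c is a transcription factor of neurons that acts in activity-dependent gene expression. The exercised SIT list held 5 H3K27me3 peaks assigned to it, all list-only, and the other 5 lists held 0. They measured 1641, 1592, 2230, 3886 and 5969 bp and lay between chr13:83484069 and chr13:83590537, from 18325 bp upstream of the nearest start to 8892 bp downstream of another, with 2 of them at promoters. The nearest peak of another H3K27me3 list was 1849028 bp away. H4K8ac was listed at Mef2c in all 6 lists, with 14, 8 and 10 peaks in the exercised SIT, left and right lists and 23, 14 and 13 in the sedentary ones, and 2 of the 5 list-only peaks overlapped H4K8ac. Next in number were Gm20594, Gm2897, Gsg1l and Pom121l12 with 4 list-only peaks each, none at a promoter, also named after their values were seen. Their nearest peaks of another list were 1281025, 41088, 46578 and 1391336 bp away. Gsg1l encodes an auxiliary subunit of AMPA receptors, and Gm2897 lies in the multi-copy DNA described below. A further 11 genes of this group had 3 list-only peaks each.

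The widest list-only peaks showed where larger stretches were listed in exercised SIT alone. The widest, of 13146 bp, covered the start of Gm6277, an antisense transcript beside Cables1, and had no H3K27me3 peak assigned in the other lists. The Ankfn1 promoter peak measured 12144 bp and the intronic Tshz3 peak 9069 bp. A peak of 9802 bp (chr17:44031187-44040988) covered the last part of Rcan2, a calcineurin regulator, and ran past its 3' end, and its deposited class was 5' UTR, that of a short Rcan2 transcript. Ankfn1, Rcan2 and Tshz3 had H3K27me3 peaks in all 5 other lists too: Tshz3, a zinc finger homeobox factor, had 79 peaks in the exercised SIT list, 10 of them list-only, and 14 to 41 in the others. The Samd9l promoter peak (7724 bp) lay in a gene with 9 peaks in this list and 3 to 5 in the others. Peaks of 6818 to 7193 bp were assigned to 2700046A07Rik, C330018D20Rik, Phyhipl and Gm2897, with 1 of 6927 bp without a gene symbol. Other wide promoter peaks were at Vmn1r235, a vomeronasal receptor gene (5869 bp), 4930515G16Rik (5363 bp), Gm17634 (4972 bp), Vwa5b1 (4823 bp), Nrg2, which encodes a neuregulin growth factor (4800 bp), and Gm12409 (4744 bp).

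List-only peaks also gathered in runs. When peaks less than 50 kb apart were joined, they formed 2715 groups, 1851 of a single peak and 70 of 5 or more, which held 470 peaks (11.1%). Cables1, which encodes a substrate linking Cdk5 and Abl kinases, had the most of any gene: 14 of its 20 exercised SIT peaks were list-only, and the other lists held 1, 1, 1, 0 and 1. From 250 kb before to 250 kb after this gene, the exercised SIT list had 34 peaks with 18 list-only, the sedentary right separate list 9, the exercised left separate list 7, the sedentary SIT and sedentary left separate lists 1 each and the exercised right separate list 0. Most peaks of the other lists lay beyond the 3' end of the gene, while most list-only peaks lay over its body or near its start.

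Mast4, a microtubule-associated kinase gene, had 11 list-only peaks of 23, in a neighbourhood with 20 to 37 H3K27me3 peaks in the other lists. Those list-only peaks lay on both sides of the gene start, outside the broader domains that the lists shared. Slc8a3, which encodes a sodium-calcium exchanger, had 10 list-only peaks of 12 over 78.2 kb of chromosome 12 (chr12:81260634-81338794), 3 at promoters, with 0 peaks in the sedentary SIT list, 1 in exercised left separate and 2 in sedentary right separate. Kirrel3, a neuronal adhesion gene, had 9 of 20, with 1 in the sedentary SIT list, 1 in exercised left separate, 3 in sedentary right separate and 0 in the remaining 2. Nhs on the X chromosome had 11 of 31, against 2 in sedentary SIT, 14 in exercised and 1 in sedentary left separate, and 0 in exercised and 10 in sedentary right separate. Kcnip1, a potassium channel-interacting protein gene, had 10 of 40, with 9 to 27 peaks in the others.

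**Figure D5:**
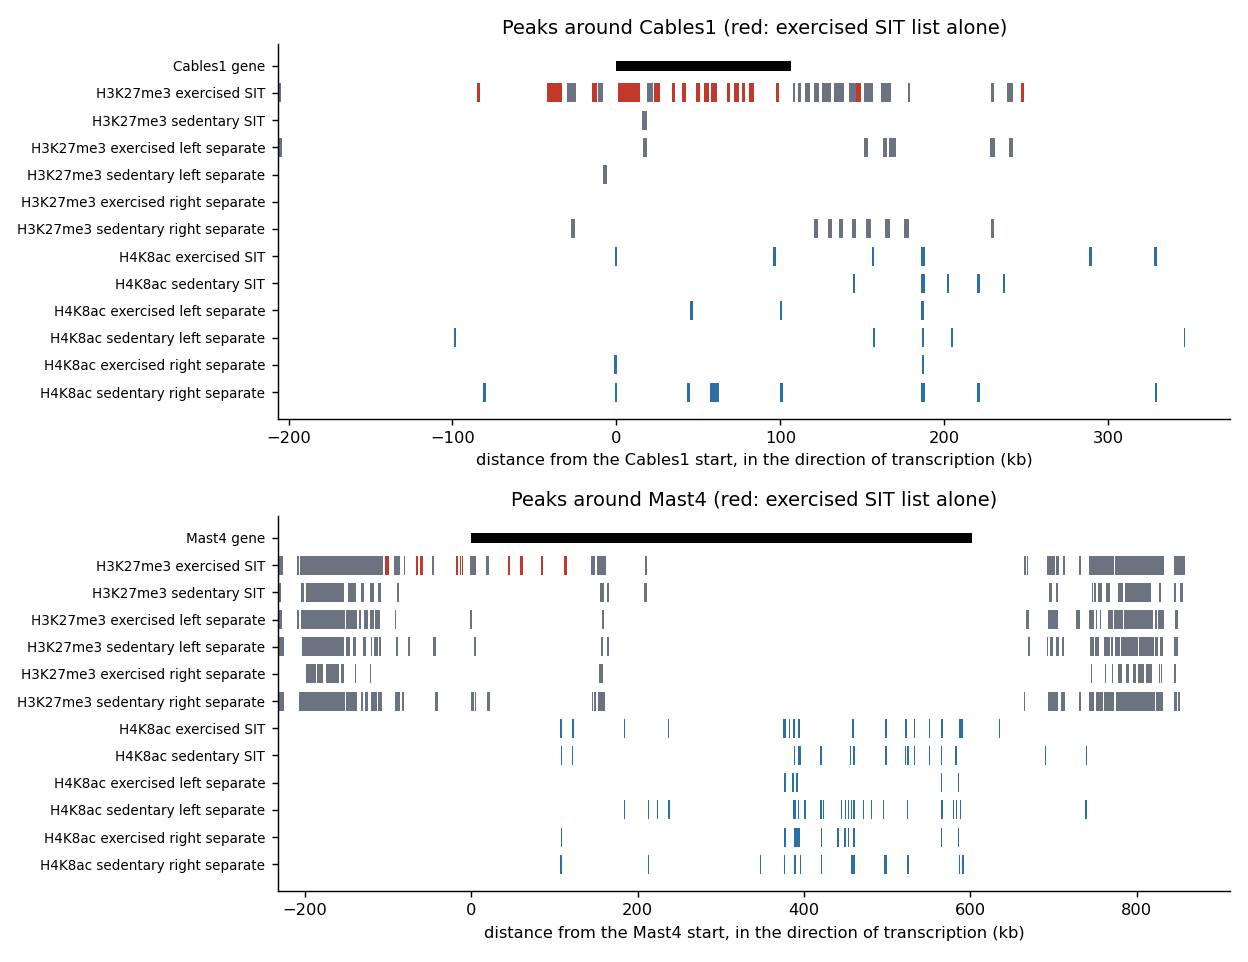
Peaks of the 12 lists around Cables1 and Mast4, the gene with the most list-only peaks and the gene next in rank, by distance from the gene start in the direction of transcription (kb). List-only peaks are red, other H3K27me3 peaks grey, H4K8ac peaks blue and the gene black, and peaks under 0.8 kb are drawn at 0.8 kb. Red peaks run along the body of Cables1, where the sedentary SIT list has 1 peak, and flank the start of Mast4 beside grey domains that the lists share.

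Another set of runs lay in multi-copy DNA. The first 8 Mb of chromosome 14 held 127 list-only peaks (2.99%) and 156 shared peaks (1.05%), with a median of 63.7% and 57.6% of bases masked as repeats. Near-identical gene copies lie there, among them Gm10406 with 10 list-only peaks and Gm2897 with 4, and reads that fit several copies cannot be placed with certainty, so these peaks are uncertain. Without this stretch the count was 4122. Across the genome, repeats made up a mean of 24.6% of list-only and 23.2% of shared peak sequence. The list-only share of exercised SIT peaks ran over the autosomes from 17.3% on chromosome 5 to 27.7% on chromosome 14, and on the X chromosome it was 35 of 99 peaks (35.4%, 26.6 to 45.2%).

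Among 11 genes taken from the study's text, 3 had list-only peaks, 4 in all. Col1a2 and Col5a1, which the text also names, had 1 list-only peak each and are counted with the collagens. Epop, which encodes a partner of Polycomb repressive complex 2, had 1 H3K27me3 peak in the exercised SIT list and none in the others, a promoter peak of 2404 bp with 4.70 CpG per 100 bp, 281361 bp from any other list's peak (chr11:97626366-97628769). The Efnb2 peak (chr8:8572392-8578516, 6125 bp) lay beyond the 3' end of this ephrin ligand gene, 60847 bp from the assigned start and 198876 bp from other lists. Efnb2 had 2 peaks in exercised SIT, 1 in sedentary left separate and 0 in the other 4. Prox1, a transcription factor of dentate granule cells, had 2 list-only peaks of 1646 and 1679 bp, 0 and 154 bp from another list, beside 23 peaks in this list and 3 to 28 in each of the others. No list-only peak was assigned to Col3a1, Myoc, Sntb2, Kptn, Fdxr, Rtl1, Asphd1 or Bdnf.

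Gene groups were counted as genes with at least 1 list-only peak among group members that had any exercised SIT H3K27me3 peak within 100 kb, beside 42.1% over all such genes. A gene with more peaks has more chances of holding a list-only one, and this background was not matched for peaks per gene. Genes induced by neuronal activity had 3 of 4. Fosl1, an AP-1 subunit gene, had a promoter peak (1343 bp, 7.22 CpG per 100 bp) and Fos a peak 41321 bp upstream of its start (4609 bp), and neither gene was in another H3K27me3 list. Nr4a2, a nuclear receptor gene of the same kind, had a promoter peak of 2880 bp with 4.13 CpG per 100 bp, and 1 peak in each of the sedentary SIT, both left separate and sedentary right separate lists. Polycomb complex genes had 2 of 5, Epop and Aebp2, a subunit of the same complex.

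Among cell type genes, list-only peaks were at 0 of 3 excitatory neuron genes, 2 of 11 interneuron genes (Gad2 and Calb2, both outside promoters), 2 of 6 astrocyte genes, 0 of 5 oligodendrocyte genes and 4 of 8 microglial and endothelial genes. Aldoc, which encodes an aldolase of astrocytes, had a promoter peak of 2183 bp and no H3K27me3 peak in the other lists. The peak covered the start of its assigned transcript inside the gene, and the gene's own start lay outside it. The endothelial adhesion gene Cdh5 had 4 list-only peaks of 8.

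Developmental regulators, the classic Polycomb targets, had list-only peaks at 39 of 102 homeobox genes (38.2%), 9 of 29 forkhead genes (31.0%), 4 of 19 SOX and T-box genes (21.1%) and 1 of 4 Hox genes, Hoxb1. Of the 39 homeobox genes, 1 (2.56%) had no H3K27me3 peak in the other lists, Lhx2, named after its value was seen, against 21.3% of all genes with a list-only peak, and this difference was not tested. Foxo1, a forkhead factor, had 3 intronic list-only peaks of 5, with 2 in sedentary right separate and 0 in the other 4. Signalling genes gave 10 of 34 in the WNT pathway (Sfrp1, Wnt5b and Sfrp2 with the most covered bases), 11 of 25 in the BMP and TGF-beta pathways (Smad5, Gdf6 and Bmp6) and 6 of 16 among FGF genes (Fgfr2, Fgf20 and Fgf9).

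Adhesion and guidance genes stood above the background share, which took no account of how many peaks each gene had. Cadherins and protocadherins had list-only peaks at 15 of 19 genes with 40 peaks, led by Cdh4 (8 of 45 peaks), Cdh13 (6 of 57) and Cdh23 (6 of 27). Axon guidance genes had 13 of 20, led by the netrin receptor gene Unc5d. The Epha2 peak (3981 bp) was at the promoter of its assigned transcript, inside the gene. Potassium channel genes had 20 of 41 (48.8%), and 5 of the 20 (25%) were in no other list, near the 21.3% of all genes with a list-only peak. Glutamate receptor genes had 5 of 11, led by Grik1 with 5 list-only peaks of 39, GABA and glycine receptor genes 3 of 4 (Glra1, Glra3 and Glrb), and sodium, calcium and HCN channel genes 4 of 13. The only Glrb peak was 79.3% repeat sequence. Whether the cadherin and guidance shares differ from other genes was not tested, and the groups were chosen with earlier results of these data known.

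Collagen genes had 12 of 26 (Col24a1, Col8a1 and Col14a1 with the most bases) and ADAM and matrix protease genes 11 of 30 (Adamts12, Adam18 and Mmp2). Large families lay near the background: 45 of 112 solute carrier genes (40.2%), 40 of 102 Zfp genes (39.2%), 68 of 179 olfactory receptor genes (38.0%), 20 of 49 vomeronasal receptor genes (40.8%), 7 of 19 keratin genes (36.8%) and 19 of 57 chemokine and interleukin genes (33.3%). Of the 68 olfactory receptor genes, 34 (50%) were in no other H3K27me3 list, against 21.3% of all 2611 genes with a list-only peak, and 29 (42.6%) had a list-only promoter peak, against 20.5%. These differences were not tested.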

How the data were processed

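CUT&RUN-seq libraries of H3K27me3 and H4K8ac came from 40 of 60 samples, and the 20 IgG samples are not analysed here. The authors checked reads with FastQC 0.11.9, aligned them with Bowtie2 2.4.1, called peaks with SEACR (stringent setting) and annotated them with ChIPseeker 1.8.6 on mm10 (GRCm38). Per the file headers, the tables they deposited list positions and widths in bp, an annotation class, a distance to the assigned start site and a gene symbol. They are 1 table per mark, condition and isolation, with no counts or signal, so the depth behind a peak is unknown.

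Peaks overlapped where they shared at least 1 bp. GC, CpG per 100 bp and masked repeats were counted in GRCm38.p6, and genes were taken from GENCODE M21, whose transcripts matched 4212 of 4249 peaks (99.1%). No sequence from chromosome 18 is shown. Gene counts per list hold every peak assigned to the gene, at any distance. Distances and promoter classes refer to the start of the assigned transcript, which can lie inside the gene. Shares have 95% Wilson intervals. Differences over the 6 lists were tested by flipping their signs in a two-sided exact permutation test. Benjamini-Hochberg adjustment was over 4 tests, with a threshold of 0.05. The promoter share was 1 of the 4. It is given without its p, since it depends on the distance the rule used and on peak width. It stayed in the adjustment, so the adjusted p of GC and CpG depend on it. Interval functions and the permutation test were tested on simulated data.

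Members, the 30 gene lists and tests were chosen with earlier results of these data known. Genes were named if they had 1 of the 10 widest list-only peaks, the 10 widest at promoters or the 10 highest numbers of list-only peaks (ties by summed width), if the study names them, or if they were among the 3 of a gene list with the largest summed width. Alternatives changed the overlap, the distance limit, the widths, chromosomes, H4K8ac lists or H3K27me3 lists compared. Scripts used Python 3.11.15 (numpy 2.4.6, pandas 2.3.3, matplotlib 3.10.9).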

Additional observations from a re-analysis of the deposited data

Results flagged for a closer look

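The share of peaks found in 1 list alone differed between conditions in opposite directions across isolations, and this difference was not tested, since each isolation has 1 list per condition. Exercised minus sedentary, it was 21.9 percentage points in SIT and 4.08 points in the left separate isolation, and -9.61 points in the right separate isolation. The longer list of each isolation had the higher share, and list length and condition cannot be told apart.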

How the results depend on the processing

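The count of 4249 became 7199 when a reciprocal overlap of 50% was needed to count as shared, 1358 with a distance limit of 10 kb, 2034 in the widest 50% of each list and 739 in lists of equal length, an alternative chosen after seeing the data. Without 1 other list it ran from 4331 to 6318. The remaining alternatives kept it within 1.5 times. The promoter, GC and CpG differences were negative under every alternative. Among peaks of 1000 to 3000 bp, GC and CpG no longer passed the threshold after adjustment (-1.97 points and -0.275 per 100 bp). Their unadjusted p in the exact permutation test stayed at 0.03125, and both were lower in 6 of 6 lists. Their adjusted p rose to 0.0625 through the promoter test, which shares the adjustment. The promoter difference at this width was -0.693 points. Leaving out each list in turn, also added after seeing the data, gave -13.3 to -11.1 points for promoters, -1.85 to -1.41 points for GC and -0.298 to -0.244 per 100 bp for CpG, where 5 lists cannot reach p below 0.0625 in this exact permutation test. The H4K8ac difference depended on the setting. It passed the threshold with reciprocal overlap (-0.517 points, adjusted p = 0.03125 in the exact permutation test), and turned positive with no distance limit (0.436 points), at widths of 1000 to 3000 bp (0.262 points), with the peak centre inside an H4K8ac peak (0.195 points) and without the sedentary SIT list (0.241 points). Leaving out each list gave -0.515 to 0.241 points. No paired analysis was possible because the lists hold no samples, although the labels of the groups share replicate numbers.

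The lists give no depth, signal or false discovery rate per peak. Whether a peak absent from a list fell just under the caller's threshold there cannot be read from them, and list length ran from 9899 to 25693 peaks.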
